A study of Mus musculus with 12 samples.

Results

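Stromal, endothelial and pericyte markers were examined in the main olfactory epithelium (MOE) of mice that lack the histone variant gene H2be. The members are 10 genes, taken as the probe sets whose platform gene symbol is on that list. Pecam1, Kdr, Cdh5, Tek and Vwf mark endothelium, Rgs5 and Pdgfrb mark mural cells, and Pdgfra, Lum and Dcn mark fibroblasts. Each gene had 1 probe set, so they make 10 of 28944 experimental probe sets, and all 10 were among the 28151 with a mean log2 signal above 5.

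RNA from freshly dissected, whole MOE was hybridised to the Affymetrix Mouse Gene 1.0 ST array, which measures a transcript by the brightness of several short probes. There were 6 H2be-KO and 6 WT arrays. All mice were 6 months old, each array held RNA pooled from 2 animals, and the design text gives an equal mix of males and females, and the labels do not give the sex of each pool. Y-linked transcripts split the arrays evenly, being low in replicates 1, 2 and 3 and high in replicates 4, 5 and 6 of both genotypes, so sex was balanced between the genotypes as far as these transcripts show it. In H2be-KO mice the coding sequence of H2be was replaced by GAP43-mCherry, a reporter that labels membranes, and targeted founders were crossed to C57Bl/6. WT mice carried no alteration named in the labels. Nothing in the labels says how the pools of one genotype relate by litter or day, so p-values measure the spread between these pools only.

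The lamina propria under the olfactory epithelium holds capillaries, nerve bundles and loose connective tissue. Endothelial cells line the vessels, pericytes and smooth muscle cells wrap them and are together called mural cells, and fibroblasts lay down the collagen matrix around both. Vessel growth runs through VEGF and angiopoietin receptors on the endothelium, and the recruitment of pericytes through platelet-derived growth factor and its receptor PDGFRB. H2be itself is known from olfactory neurons, which lie in the epithelium above this tissue.

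The arrays were similar in scale, with medians of 7.84 to 7.90 and pairwise correlations of 0.951 to 0.985. Omp, a marker of mature olfactory neurons, was 12.91 ± 0.07 in H2be-KO and 12.90 ± 0.07 in WT on the log2 scale (SD, n = 6 each), so the labelled tissue carried its defining marker. The probe set of H2be, named H2bc21 in RefSeq, was 11.65 ± 0.12 in H2be-KO and 11.89 ± 0.17 in WT. Whether its probes lie in the replaced coding sequence was not given, so it does not check the genotype labels. Of 28151 probe sets, 1563 passed an unadjusted limma p under 0.05, with 1065 higher and 498 lower in H2be-KO. After Benjamini-Hochberg adjustment the number was 0, and the smallest adjusted p was 0.572. A two-sided exact permutation test called 1693 before adjustment.

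Promoter sequence was available for 4 of the 10 members, in RefSeq on build GRCm38.p6. The 150 bases before the start are shown for Rgs5, the member with the largest difference between the genotypes, and for Kdr and Tek, the receptors of vessel growth among the members. Sequences run 5′ to 3′ along the gene's strand, and capitals mark GGAA on either strand, the core read by ETS factors. The Rgs5 window is chr1:169655351-169655500 on the plus strand, the Kdr window chr5:75978456-75978605 on the minus strand and the Tek window chr4:94739139-94739288 on the plus strand.
Rgs5: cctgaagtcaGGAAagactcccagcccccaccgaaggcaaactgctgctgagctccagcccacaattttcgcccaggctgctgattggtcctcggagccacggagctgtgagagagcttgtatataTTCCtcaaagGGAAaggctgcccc
Kdr: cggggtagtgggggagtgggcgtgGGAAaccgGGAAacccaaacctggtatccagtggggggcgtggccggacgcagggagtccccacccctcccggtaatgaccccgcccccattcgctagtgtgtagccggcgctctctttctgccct
Tek: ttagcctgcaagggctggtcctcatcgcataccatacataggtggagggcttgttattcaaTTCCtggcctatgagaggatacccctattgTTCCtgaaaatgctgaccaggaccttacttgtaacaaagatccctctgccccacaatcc

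The Rgs5 window held 3 GGAA cores, and the Kdr, Tek and Pdgfra windows held 2 each. The core was present in 80.8% of 32851 promoter windows of the same length, with a median of 2. The windows differed in base composition, with 67.3% G and C in Kdr, 57.3% in Rgs5, 50.7% in Pdgfra and 48.7% in Tek, against a median of 54.0% over all windows. The longer forms AGGAAG and CGGAAG, which contain the core, occurred in 19.7% and 10.4% of all windows. AGATAA, read by GATA factors, occurred in 5.65%, and TATAAA in 7.57%. None of these longer forms lay in the 4 member windows on either strand.

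Of the 10 members, Rgs5 and Lum passed an unadjusted limma p under 0.05, both higher in H2be-KO. That makes 2 higher, 0 lower and 8 that did not pass. Over all probe sets tested, 5.55% passed that threshold in either direction, 3.78% higher and 1.77% lower. After adjustment over all 28151 probe sets 0 members passed in limma, and the exact test before adjustment called Rgs5 and Lum, where it called 6.01% of all probe sets. The difference was positive for 5 of 10 members and for 56.16% of all probe sets. Its median was 0.0236 over the members and 0.0231 over all probe sets on the log2 scale. In bulk tissue, fewer cells of a type and less RNA per cell cannot be told apart.

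**Figure D1:**
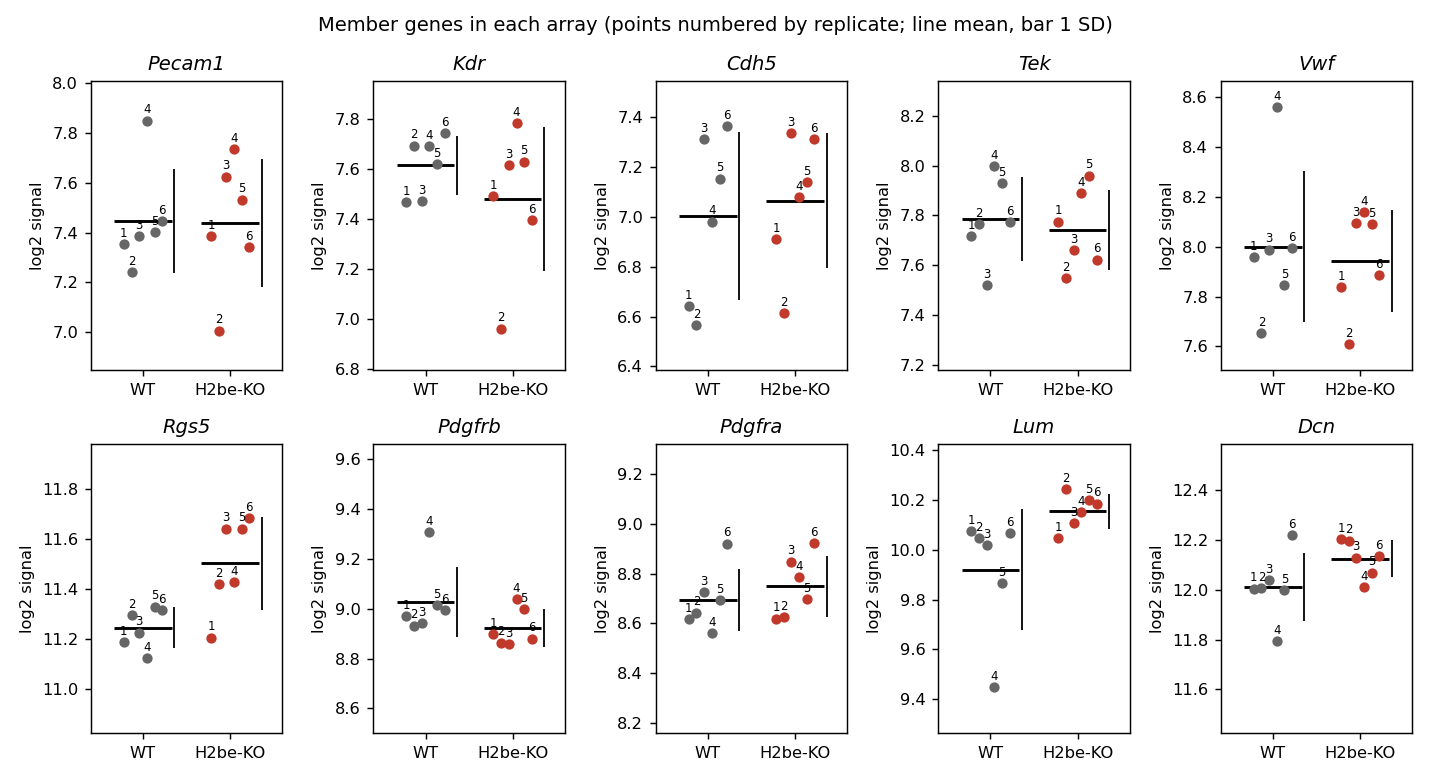
Log2 signal (vertical axis) of each member gene in 6 WT and 6 H2be-KO arrays, with points numbered by replicate, a line at the group mean and a bar of 1 SD. Vertical axes span the same height in every panel, and Rgs5 and Lum have 5 of 6 H2be-KO arrays above all WT arrays.

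Among the endothelial members, none passed the test in either direction. Pecam1 encodes an adhesion molecule at the junctions between endothelial cells. Its log2 signal in WT had a lowest value of 7.24, a median of 7.39 and a highest of 7.85, and in H2be-KO 7.01, 7.46 and 7.74. The groups overlapped, and the difference was -0.01 with an SE of 0.13 and a 95% interval of -0.28 to 0.26 (limma adjusted p = 0.987, n = 6 each).

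Kdr encodes VEGFR2, the main receptor for VEGF signals in endothelium. Its lowest, median and highest signals were 7.47, 7.66 and 7.74 in WT and 6.96, 7.55 and 7.79 in H2be-KO. The WT arrays lay inside the H2be-KO range, and the SD was 0.29 in H2be-KO and 0.12 in WT. The difference was -0.13 (SE 0.12, 95% interval -0.39 to 0.12, limma adjusted p = 0.771).

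Tek encodes TIE2, the receptor of the angiopoietins. Its signals ran over 7.52, 7.77 and 8.0 in WT and 7.55, 7.72 and 7.96 in H2be-KO, as lowest, median and highest. The ranges nearly coincided, with a difference of -0.04 (SE 0.10, 95% interval -0.25 to 0.17, limma adjusted p = 0.904).

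Cdh5 encodes VE-cadherin, which joins endothelial cells to each other. It ran over 6.57, 7.07 and 7.36 in WT and 6.61, 7.11 and 7.34 in H2be-KO, again with ranges that nearly coincided. The difference was 0.06 (SE 0.16, 95% interval -0.27 to 0.40, limma adjusted p = 0.910). Cdh5 had the widest spread of the 10 members, with a residual SD of 0.306 that was larger than in 87.2% of probe sets.

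Vwf encodes von Willebrand factor, a clotting protein stored and released by endothelium. Its signals were 7.65, 7.97 and 8.56 in WT and 7.61, 7.99 and 8.14 in H2be-KO, as lowest, median and highest. WT replicate 4 alone stood above every H2be-KO array. The difference was -0.06 (SE 0.14, 95% interval -0.35 to 0.24, limma adjusted p = 0.903).

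The mural members had differences of opposite sign, and 1 of them passed. Rgs5 encodes a regulator of G protein signalling that is abundant in pericytes. Its lowest, median and highest signals were 11.12, 11.26 and 11.33 in WT and 11.21, 11.54 and 11.68 in H2be-KO. In H2be-KO 5 of 6 arrays lay above all WT arrays, and replicate 1 lay within the WT range. The means were 11.50 ± 0.19 in H2be-KO and 11.25 ± 0.08 in WT (SD, n = 6 each), a difference of 0.26 with an SE of 0.09 and a 95% interval of 0.06 to 0.45. It was 1.2-fold higher in H2be-KO by limma before adjustment (p = 0.0133, two-sided exact permutation p = 0.0152), and the adjusted limma p was 0.753. The unadjusted call held in all 25 alternative settings, with differences from 0.203 to 0.318. The difference was 0.187 among the 6 arrays low in Y-linked transcripts and 0.329 among the 6 high ones.

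Pdgfrb encodes the receptor through which endothelium recruits pericytes. Its signals were 8.93, 8.98 and 9.31 in WT and 8.86, 8.89 and 9.04 in H2be-KO, as lowest, median and highest. The groups overlapped, with WT replicate 4 the highest of the 12 arrays. The difference was -0.10 (SE 0.08, 95% interval -0.28 to 0.07, limma adjusted p = 0.761), which did not pass.

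Other mural markers stood beside Rgs5 as follows. Of 18 such probe sets tested, 0 were higher, 0 were lower and 7 had a positive difference, with a median of -0.07. The mean of the list over its genes, relative to the mean of the array, ran from -0.40 to -0.24 in H2be-KO and from -0.35 to -0.05 in WT. The smallest p of this list belonged to Higd1b, a pericyte marker of unsettled function, at -0.21 (limma unadjusted p = 0.0594, two-sided exact permutation p = 0.0584, n = 6 each). Mcam, an adhesion molecule of vessel walls, was at -0.21 and Des, the muscle filament protein desmin, at -0.28, and neither passed.

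All fibroblast members had positive differences, and 1 of 3 passed. Lum encodes lumican, a small proteoglycan that binds collagen fibrils. Its lowest, median and highest signals were 9.45, 10.03 and 10.07 in WT and 10.05, 10.17 and 10.24 in H2be-KO. In H2be-KO 5 of 6 arrays lay above all WT arrays, and 3 WT arrays lay below all H2be-KO arrays. The means were 10.16 ± 0.07 in H2be-KO and 9.92 ± 0.24 in WT (SD, n = 6 each), a difference of 0.24 with an SE of 0.10 and a 95% interval of 0.01 to 0.46.

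Lum was 1.18-fold higher in H2be-KO by limma before adjustment (p = 0.0409, two-sided exact permutation p = 0.00866), and the adjusted limma p was 0.753. The limma call was lost in 10 of 25 alternative settings. Without WT replicate 4, the lowest array for Lum, the difference was 0.141, with an unadjusted limma p of 0.0653. Leaving out WT replicate 5, or any of H2be-KO replicates 2 to 6 alone, also ended the call, with unadjusted limma p between 0.0501 and 0.0765. The difference was 0.0852 among the 6 arrays low in Y-linked transcripts and 0.385 among the 6 high ones, which include WT replicate 4, and these were not tested against each other.

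Dcn encodes decorin, a relative of lumican that also coats collagen. Its signals were 11.79, 12.01 and 12.22 in WT and 12.01, 12.13 and 12.20 in H2be-KO, as lowest, median and highest. All 6 H2be-KO arrays lay above the WT median, and the groups overlapped. The difference was 0.11 (SE 0.08, 95% interval -0.06 to 0.29, limma adjusted p = 0.754), which did not pass.

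Pdgfra encodes a receptor for platelet-derived growth factor that marks fibroblasts and mesenchymal progenitors. Its signals were 8.56, 8.67 and 8.92 in WT and 8.62, 8.74 and 8.92 in H2be-KO, as lowest, median and highest, so the ranges nearly coincided. The difference was 0.06 (SE 0.09, 95% interval -0.13 to 0.24, limma adjusted p = 0.852).

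**Figure D2:**
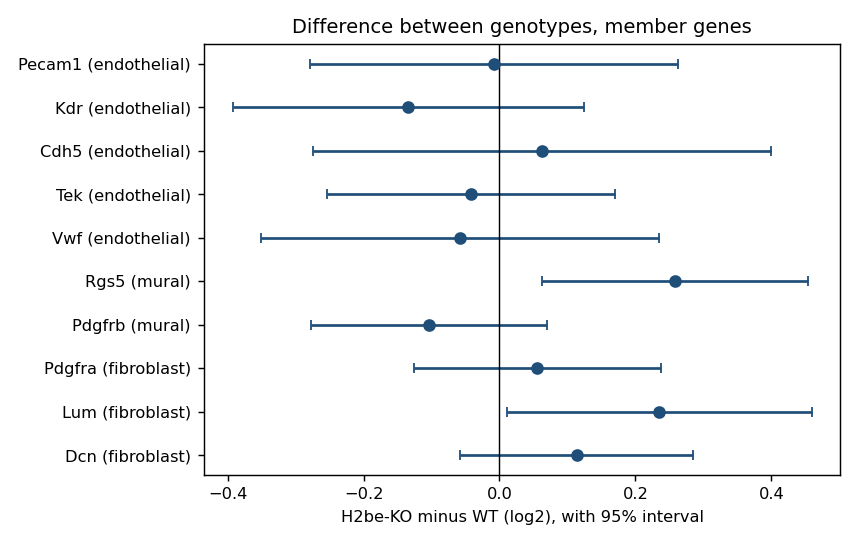
Difference in mean log2 signal, H2be-KO minus WT (horizontal axis), for each member gene with its 95% interval from limma, grouped by cell type. The intervals of Rgs5 (0.06 to 0.45) and Lum (0.01 to 0.46) lie above 0, and the other 8 cross it.

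A set of tissue markers that whole MOE dissections can include moved in some arrays. Markers of bone, cartilage and tooth, of which 11 of 14 were matched, averaged -0.44 ± 0.49 in H2be-KO (-0.91 to 0.38) and -0.60 ± 0.18 in WT (-0.79 to -0.29), relative to the array mean (SD, n = 6 each). Of the 11, 9 had a positive difference and 0 passed, with a median of 0.10. The largest was that of Amelx, which encodes an enamel protein, at 7.57 ± 3.25 in H2be-KO and 5.58 ± 0.27 in WT. The highest values were those of H2be-KO replicates 6 and 1. Without both arrays Rgs5 differed by 0.287 and Lum by 0.255, with unadjusted limma p of 0.00881 and 0.0646. Mature neuron markers averaged 2.82 ± 0.06 in H2be-KO and 2.83 ± 0.03 in WT (SD, n = 6 each).

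Single markers of some other cell types also passed before adjustment, where 5.55% of all probe sets passed. Of 15 mature neuron, 9 sustentacular, 10 gland and 3 erythroid probe sets, 0 passed. Of 7 basal cell probe sets, 1 had a positive difference and 1 was lower, the integrin subunit Itgb4 at -0.26 (limma unadjusted p = 0.0327, two-sided exact permutation p = 0.0325). The basal list averaged 0.14 ± 0.08 in H2be-KO and 0.28 ± 0.16 in WT (SD, n = 6 each). Of 7 ensheathing glia probe sets 1 was higher, the fatty acid binding protein gene Fabp7 at 0.22 (limma unadjusted p = 0.0354, exact p = 0.0303). Of 12 macrophage probe sets 1 was higher, Fcrls at 0.48 or 1.40-fold (limma unadjusted p = 0.000638, exact p = 0.00866). None passed after adjustment, and the part of these cell types in the differences of Rgs5 and Lum was not tested.

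The remaining genes of these cell types were read from 5 lists. Counted once, 103 probe sets were tested, of which 3 were higher in H2be-KO, 0 were lower and 100 passed in neither direction by limma before adjustment. That is 2.91% called, against 5.55% of all probe sets. Of these 103, 46 had a positive difference, and the median was -0.02. Over all probe sets 56.16% had a positive difference, and the median was 0.02.

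Of 27 other endothelial probe sets, 0 passed, 6 had a positive difference and the median was -0.06. The smallest limma p values belonged to Gpihbp1, which holds lipoprotein lipase on capillaries, at -0.25 (two-sided exact permutation p = 0.143), Egfl7, a secreted vessel matrix protein, at -0.18 (exact p = 0.119), and Sox18, an endothelial transcription factor, at -0.15 (exact p = 0.0996). Of 4 lymphatic probe sets, 0 passed and 0 had a positive difference. The median of this list was -0.04, with the hyaluronan receptor Lyve1 at -0.04, podoplanin (Pdpn) at -0.03 and reelin (Reln) at -0.06.

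Of 24 vessel ligands and receptors, 0 passed, 8 had a positive difference and the median was -0.06. Notch1, a receptor that guides sprouting, was at -0.25 (two-sided exact permutation p = 0.0909), and Angpt2, an angiopoietin that destabilises vessels, was at 0.19 (exact p = 0.128). Aplnr, the apelin receptor, was at -0.16. Vegfa, the ligand of KDR, was at -0.10, and Angpt1, the activating ligand of TIE2, at 0.09. Pdgfb, the ligand of PDGFRB, was at -0.003, and Pdgfa, a ligand of PDGFRA, at -0.13. None of these ligands passed.

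Of 34 other fibroblast probe sets, 3 were higher in H2be-KO, 0 were lower and 31 did not pass. Of the 34, 25 had a positive difference, with a median of 0.06. Over all probe sets 3.78% were higher and 56.16% had a positive difference. Under quantile normalization 22 of the 34 were positive with a median of 0.0249, and the median over all probe sets was -0.000401. Differences ran from -0.34 for Meox1, which did not pass, to 0.34 for Aspn. Among other small proteoglycan genes of this list, Ogn was at 0.22 and Bgn at 0.02. Fmod was at -0.23 and Prelp at -0.14, and none of these passed. Aspn, which encodes asporin, a small proteoglycan related to decorin and lumican, was 9.60 ± 0.18 in H2be-KO and 9.26 ± 0.28 in WT (SD, n = 6 each). It was 1.27-fold higher (limma unadjusted p = 0.0177, two-sided exact permutation p = 0.0260). Postn encodes periostin, a matrix protein of periosteum and healing tissue, and was 10.17 ± 0.16 against 9.84 ± 0.29. It was 1.26-fold higher (limma unadjusted p = 0.0207, two-sided exact permutation p = 0.0281).

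Mfap5, which encodes a protein of elastic microfibrils, was 6.90 ± 0.27 in H2be-KO and 6.58 ± 0.29 in WT (SD, n = 6 each). Its limma p was 0.0481 before adjustment and its exact permutation p was 0.0758, and the limma call held in 11 of 24 alternatives. The calls of Aspn and Postn held in 24 of 24. The adjusted limma p was 0.753 for all 3 genes, as for Rgs5 and Lum. Periostin is also made in bone and teeth, and the markers of those tissues are given above for both genotypes. Their part in these differences was not tested.

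**Figure D3:**
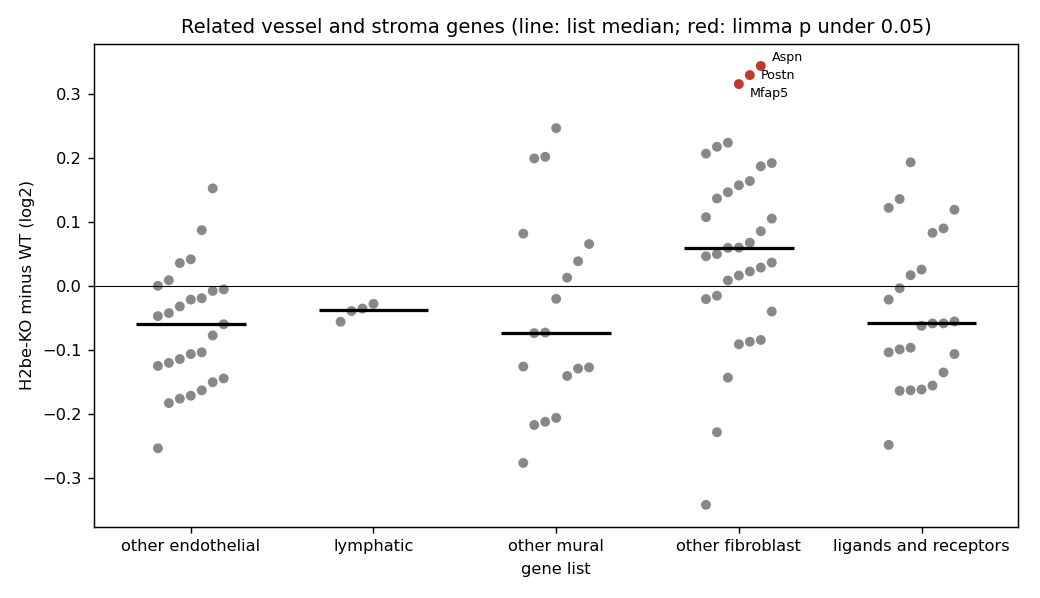
Difference in log2 signal, H2be-KO minus WT (vertical axis), for every probe set of the 5 related gene lists, with a line at each list's median and red points at an unadjusted limma p under 0.05. The medians lie between -0.07 and 0.06, and the 3 red points all belong to the fibroblast list.

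The members were then compared with each other over the 12 arrays. Of 45 pairs, 26 correlated positively, 14 had an unadjusted permutation p under 0.05 for Pearson's r, and 2 passed after Benjamini-Hochberg adjustment over the 45 pairs. For Spearman's rho 1 pair passed. The 10 pairs of endothelial genes had a median r of 0.539, all positive, from 0.0125 for Cdh5 and Tek to 0.926 for Pecam1 and Vwf. In the 6 arrays high in Y-linked transcripts, r of Cdh5 was -0.836 with Pecam1, -0.829 with Tek, -0.737 with Vwf and -0.371 with Kdr. In the 6 low ones these were 0.75, -0.385, 0.792 and 0.3, and the sets were not tested against each other. The 15 pairs of an endothelial and a fibroblast gene had a median of -0.371, and 4 of them were positive. Without WT replicate 4 that median was -0.0993. The 10 pairs of an endothelial and a mural gene had a median of 0.215, the 6 of a mural and a fibroblast gene 0.0205, and the 3 within fibroblast genes 0.491.

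**Figure D4:**
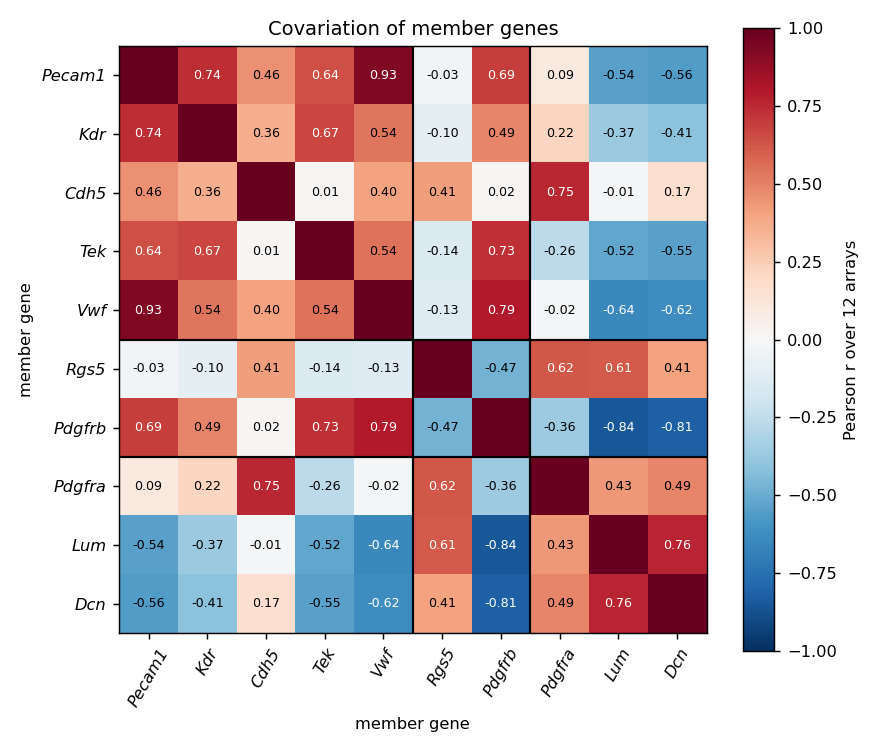
Pearson r over 12 arrays for each pair of member genes, with genes on both axes in order of cell type and colour giving r. All 10 endothelial pairs are above 0, and Pdgfrb is below 0 with Lum (-0.845) and with Dcn (-0.813).

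Pecam1 and Vwf varied most closely. Their r was 0.926 (permutation p = 4e-05, adjusted p = 0.0018) and their rho 0.895 (permutation p = 0.00013, adjusted p = 0.00585, n = 12). The 6 arrays of H2be-KO alone gave 0.972, and those of WT alone gave the same value. With H2be-KO replicate 2 and WT replicate 4 left out, the arrays farthest from the median of Pecam1, r was 0.864. It was 0.901 in the 6 arrays low in Y-linked transcripts and 0.921 in the 6 high ones.

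Tek, the angiopoietin receptor, varied with Pdgfrb, the receptor of the pericytes, at an r of 0.733 (permutation p = 0.00129, adjusted p = 0.0290). The rho was 0.776 (permutation p = 0.00427, adjusted p = 0.0640, n = 12), so the rank form did not pass. Within H2be-KO r was 0.887 and within WT 0.731, and without the arrays farthest from the median of Tek, WT replicates 3 and 4, it was 0.848. Both genes followed the mean of the Y-linked transcripts, at a genotype-centred r of 0.642 for Tek and 0.601 for Pdgfrb. With the Y-linked mean removed the r of the pair was 0.594, and it was 0.201 in the 6 arrays low in Y-linked transcripts and 0.732 in the 6 high ones. Vwf and Pdgfrb had an r of 0.791 (permutation p = 0.00767, adjusted p = 0.0575) and a rho of 0.531, and without WT replicate 4 the r was 0.436.

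Kdr and Tek had an r of 0.666 (permutation p = 0.00993, adjusted p = 0.0575) and a rho of 0.664 (permutation p = 0.0210, adjusted p = 0.135, n = 12). It was 0.548 without H2be-KO replicates 2 and 6, the arrays farthest from the median of Kdr, and the pair did not pass after adjustment.

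Pecam1 and Kdr had an r of 0.740 (permutation p = 0.00672, adjusted p = 0.0575) and a rho of 0.636 (permutation p = 0.0299, adjusted p = 0.150, n = 12), and neither passed after adjustment. The r was 0.983 within H2be-KO and 0.291 within WT, and a difference between the genotypes was not tested. Without H2be-KO replicate 2 and WT replicate 4 it was 0.503. H2be-KO replicate 2 was the lowest of the 12 arrays for both genes.

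The 2 mural markers had a negative correlation that did not pass. Rgs5 and Pdgfrb had an r of -0.473 (permutation p = 0.115), and -0.249 once each genotype was centred on its own mean. It was -0.807 in the 6 arrays low in Y-linked transcripts and -0.817 in the 6 high ones, and neither was tested. Rgs5 went with 2 fibroblast genes before adjustment, Pdgfra at 0.624 (permutation p = 0.0284, adjusted p = 0.0982) and Lum at 0.611 (permutation p = 0.0224, adjusted p = 0.0839). With each genotype centred on its own mean, r was 0.66 for Pdgfra and 0.35 for Lum. Rgs5 and Lum were both called higher in H2be-KO, a shift that the r over all arrays includes.

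Pdgfrb had negative correlations with both proteoglycans, and these were smaller in size without WT replicate 4. For Pdgfrb and Lum r was -0.845 (permutation p = 0.0126, adjusted p = 0.0630) and rho -0.413 (permutation p = 0.183, n = 12). Without WT replicate 4 the r was -0.349, and it was 0.0778 within H2be-KO against -0.967 within WT. For Pdgfrb and Dcn r was -0.813 (permutation p = 0.00375, adjusted p = 0.0562), and -0.544 without WT replicate 4. Neither pair passed after adjustment.

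Lum and Dcn, adjacent genes on chromosome 10, had an r of 0.762 (permutation p = 0.0102, adjusted p = 0.0575) and a rho of 0.483. Without WT replicate 4 the r was 0.387. It was 0.819 within WT and -0.145 within H2be-KO, where both genes spanned a narrow range.

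**Figure D5:**
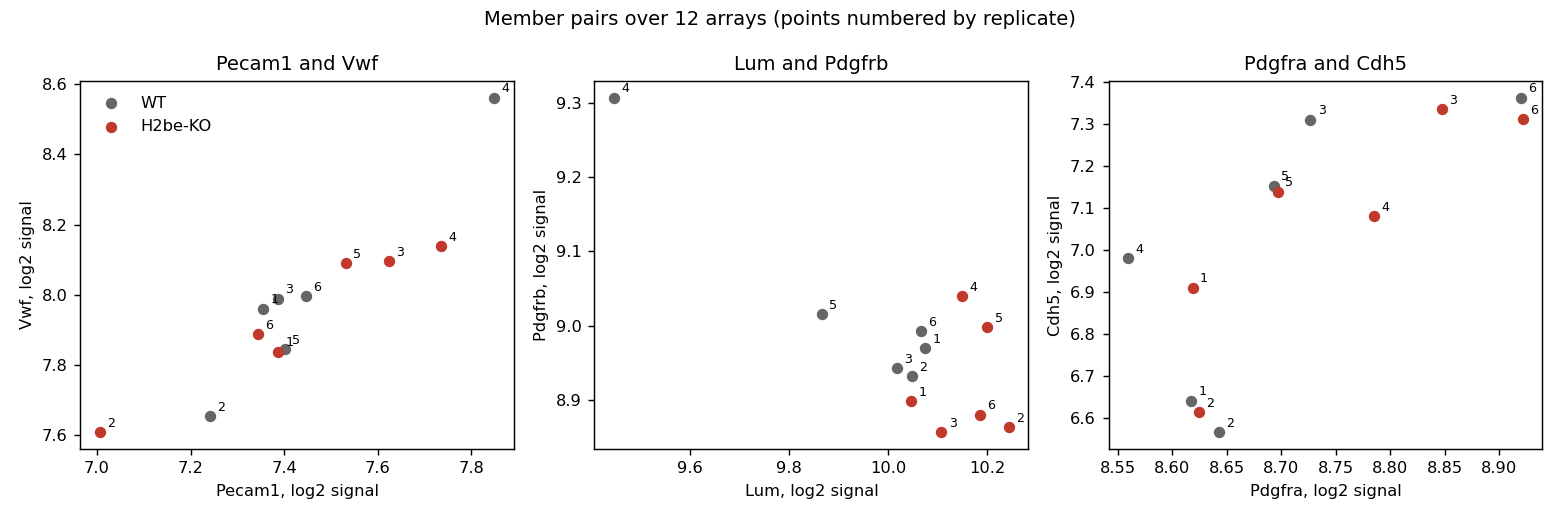
Log2 signals of pairs of member genes (one gene on each axis) in 12 arrays, with points numbered by replicate and coloured by genotype. WT replicate 4 lies at the end of the cloud for Pecam1 with Vwf (r = 0.926) and stands alone for Pdgfrb with Lum (r = -0.845, or -0.349 without it), and the points of Pdgfra with Cdh5 (r = 0.753) run from low in both to high in both.

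WT replicate 4 was the highest WT array for Pecam1 (7.85), Vwf (8.56), Tek (8.0) and Pdgfrb (9.31). It was the lowest WT array for Lum (9.45), Dcn (11.79), Pdgfra (8.56) and Rgs5 (11.12). In this pool 3 of 5 endothelial genes and the pericyte receptor were the highest of WT, and all 3 fibroblast members were the lowest. The other fibroblast markers were not low there. Their mean relative to the array mean was 0.739, within the WT range of 0.641 to 0.822. The mean of the mature neuron markers in that array was 2.776, the lowest in WT, where the highest was 2.875. What part this array's composition had was not tested.

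Other cell type markers varied with the members to differing degrees, given here as r over 12 genotype-centred arrays that share normalisation, with no test. The mean of 27 other endothelial markers went with Pecam1 and Vwf at 0.751 each, with Tek at 0.409, Kdr at 0.363 and Cdh5 at 0.327, with Pdgfrb at 0.700 and with Dcn at -0.694. Lymphatic markers went with Vwf at 0.825 and Pecam1 at 0.805, and basal cell markers with Vwf at 0.754 and Pecam1 at 0.588. The mean of 18 other mural markers went with Vwf at 0.831, Pecam1 at 0.752 and Pdgfrb at 0.685. With Rgs5, the other mural member, it was -0.245, and with Lum -0.756. The mean of 34 other fibroblast markers went with Pdgfra at 0.596, with Lum at 0.168 and with Dcn at -0.0725. Mature neuron markers ran opposite to Pecam1 (-0.752), Pdgfrb (-0.696), Vwf (-0.681), Kdr (-0.632) and Tek (-0.586). Sustentacular markers, of the supporting cells of the epithelium, went with Pdgfra at 0.940 and with Cdh5 at 0.723. Markers of the ensheathing glia of the olfactory nerve went with Pdgfra at 0.80 and with Cdh5 at 0.762.

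Cdh5 and Pdgfra, an endothelial and a fibroblast gene, had a positive correlation that did not pass after adjustment. Their r was 0.753 (permutation p = 0.00628, adjusted p = 0.0575) and their rho 0.797 (permutation p = 0.00313, adjusted p = 0.0640, n = 12). With the arrays farthest from the median of Cdh5 left out, H2be-KO replicate 2 and WT replicate 2, r was 0.778. Both also followed the largest residual component over all probe sets, which held 30.8% of the residual variance, at 0.835 for Cdh5 and 0.856 for Pdgfra. The other 8 members had correlations with it between -0.202 and 0.50.

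The members differed in how tightly their arrays agreed within a genotype. The residual SD was 0.259 for Vwf, 0.234 for Pecam1 and 0.220 for Kdr, each above the median of 0.198 over all probe sets, as was Cdh5. It was 0.179 for Lum, 0.165 for Tek, 0.144 for Rgs5, 0.124 for Pdgfra, 0.113 for Pdgfrb and 0.109 for Dcn. The residual SD of Dcn was larger than that of only 7.31% of probe sets.

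Probe sets with the most similar pattern over the 12 arrays were found by genotype-centred r among 21429 with 1 symbol. For the mean endothelial pattern the closest were Slc7a11, a cystine transporter (0.972), Plagl2 (0.920), Brk1 (0.919), Ehd2 (0.913), Cacna1c, a calcium channel subunit (0.906), and Nr2e1 (0.904). The mural pattern averages Rgs5 and Pdgfrb, whose own genotype-centred r was -0.249, so it is not a pattern that both genes shared. The closest probe sets to this average were Cul7 (0.949), Grm3 (0.932), Gdap10 (0.931), Notch2 (0.925), Aoah (0.901) and Slpi (0.880). For the fibroblast pattern they were Ermn (0.982), Zfp81 (0.979), B230354K17Rik (0.978), Rtcb (0.974), Poglut1 (0.973) and Setd3 (0.972). None of these 18 is on the 5 lists of vessel and stroma genes, and Ermn is on the list of sustentacular markers.

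An r above 0.8 was reached by 0.453% of probe sets for the endothelial pattern, 0.401% for the mural and 6.40% for the fibroblast pattern. With the endothelial pattern, the median r was 0.264 for the other endothelial genes and 0.314 for the other mural genes, against -0.0779 for all probe sets. With the mural pattern, the median r was 0.212 for the other mural genes and 0.236 for the other endothelial genes, against -0.0382 for all. With the fibroblast pattern, the median r was 0.0406 for the other fibroblast genes, -0.335 for the endothelial and -0.367 for the mural genes, against -0.0144 for all.

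For single members the closest probe sets included Plcb1 (0.911), Uevld (0.911) and Apc (0.905) for Rgs5. For Lum they were Rab3ip (0.945), Ttc33 (0.944) and Abcf2 (0.941), and for Dcn Cfap206 (0.955), Zfp113 (0.955) and Cyb5d2 (0.953). For Pecam1 they were Slc7a11 (0.940), Lrp1 (0.927) and Cacna1c (0.918), and for Pdgfrb Ehbp1l1 (0.965), Gse1 (0.947) and Tsc2 (0.946).

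By RefSeq order of protein-coding genes, Kit, the stem cell factor receptor, lies between Pdgfra and Kdr on chromosome 5. Kit differed by -0.03 (limma unadjusted p = 0.857), and over the genotype-centred arrays its r was 0.782 with Pdgfra and 0.196 with Kdr. Rgs4, the neighbour of Rgs5 on chromosome 1 and a member of the same family, differed by -0.13 (limma unadjusted p = 0.292) and had an r of -0.327 with it. Kera, which encodes keratocan and follows Lum on chromosome 10, differed by 0.06 (limma unadjusted p = 0.537). Csf1r, the macrophage growth factor receptor beside Pdgfrb, differed by 0.10 (limma unadjusted p = 0.285). None of these neighbours passed.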

How the data were processed

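RNA of whole MOE from 6 H2be-KO and 6 WT pools was measured on Affymetrix Mouse Gene 1.0 ST arrays. Per the study's methods, the authors checked arrays for outliers, summarised probes with IterPLIER and applied sketch-quantile normalisation in Affymetrix Expression Console. The sources used here give no version of either. What was deposited is 1 log2 signal for each probe set on each array, already normalised, so a difference is read against the signal of most transcripts, and the number of arrays sets the precision. Genotypes were taken from sample titles and gene names from the annotation of the platform (21789 probe sets with 1 symbol, 1621 with several, 5534 with none), and 6612 control probe sets were left out. The build of that annotation is not given in the sources used here, so no coordinates are printed for probe sets.

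Only probe sets averaging over 5 on the log2 scale were fitted with limma 3.58.1 (R 4.3.3) for H2be-KO minus WT, with Benjamini-Hochberg adjustment over all 28151. A call is an unadjusted p under 0.05. Two-sided exact permutation tests used all 924 choices of 6 of 12 arrays, with a smallest possible p of 0.0022. Correlations over arrays used 1e+05 permutations (SciPy 1.17.1, NumPy 2.4.6, Python 3.11.15), and figures used matplotlib 3.10.9. Permutations of a correlation shuffled all 12 arrays freely, so their p-values do not account for genotype, the Y-linked split or replicate number. A list's mean is over its tested probe sets, minus the mean of all tested probe sets on the array. Named genes were the members, the 3 smallest limma p of each related list, the probe sets most similar to each member or member group, and genome neighbours. Ligands of the member receptors, and further fibroblast genes with differences of either sign, were named in addition. Only some similar probe sets and neighbours are printed. Of the related lists, Ly6c1 and Ccl21a had no match. The members, lists and tests were chosen with earlier results of these data known. The fit was tested on simulated data. Alternatives covered the filter, the normalisation, covariates, weights and left-out arrays. Arrays carry replicate numbers 1 to 6 within a genotype, and the labels name no shared litter, day, slide or batch.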

Additional observations from a re-analysis of the deposited data

Results flagged for a closer look

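Each member's 6 values in each genotype were searched for an array far from the rest. Of 20 groups of 6 arrays, 3 held one, where chance marks about 1 in 20 groups, and all 3 were WT replicate 4. Pecam1 was highest there at a log2 signal of 7.85, with the next WT array at 7.45. Pdgfrb was highest there at 9.31 (9.307 before rounding), with the next at 9.02. Lum was lowest there at 9.45 (9.447 before rounding), with the next at 9.87. The 3 genes share the array and are not independent marks.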

How the results depend on the processing

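The number of members called lower in H2be-KO was 0 in all 25 alternatives. The number called higher was 1 rather than 2 under quantile normalization, median centring and without H2be-KO replicates 1 and 6, where Lum lost its call. Leaving out single arrays gave 1 to 2. The median difference over the members ran from -0.0351 to 0.0792. Among related probe sets, 5 were called higher with the replicate number as a block, 5 with array weights and 6 with trend and robust moderation, against 3, and 2 to 6 without single arrays. Called lower, against 0, were 2 under quantile normalization, 2 under median centring, 1 with the replicate block, 1 with Y-linked expression as a covariate, 2 with the first residual component, 6 with array weights, 1 with trend and robust moderation and 3 without H2be-KO replicates 1 and 6. Single arrays left out gave 0 to 12, the last without WT replicate 6. The causes were not tested.

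The median r of fibroblast pairs, 0.491, was 0.249 under quantile normalization and 0.303 to 0.648 without single arrays, lowest without WT replicate 4. That of endothelial pairs stayed within 0.371 to 0.631, that of endothelial and fibroblast pairs, -0.371, ran from -0.413 to -0.0993, the latter without WT replicate 4, and the r of Rgs5 and Pdgfrb from -0.561 to -0.249. With the Y-linked mean removed, a setting chosen after seeing the data, that r was -0.738.

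Over all probe sets, calls were 825 higher and 900 lower under quantile normalization and 815 and 699 under median centring, against 1065 and 498. They were 2039 and 951 with the replicate block, 2042 and 1214 with the residual component, 2694 and 1405 with array weights, 2265 and 1552 without WT replicate 6, 2235 and 600 without H2be-KO replicate 4, and 513 and 323 without H2be-KO replicate 5. The adjusted count was 0 in each. Same-numbered arrays deviated together in 4 of 6 pairs at a correlation over 0.1, and 4 of 6 correlated best with their own number. Not all pairs deviated together and the labels name no shared source, so the main comparison has no block. The numbers do share the split in Y-linked transcripts (replicates 1 to 3 low, 4 to 6 high in both genotypes). The block left 2 members called higher.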
